A study of Mus musculus with 2 samples.

Results

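The 9 genes described here encode homeodomain proteins of the TALE class and were taken by symbol as listed: Meis1, Meis2, Meis3, Pbx2, Pbx3, Pbx4, Pknox1, Pknox2 and Tgif1. Each symbol matched exactly 1 of the 43346 Ensembl genes in the deposited gene tables, and all 9 reached 1 TPM, a length-scaled level with the same total in each library, in both libraries. The tissue was mouse hindbrain at embryonic day 12.5, from healthy B6NCrl embryos with no treatment or engineered allele named in the labels, and males and females were pooled. Replicate 1 was a pool of 120 embryos and replicate 2 a pool of 88. With 1 group there is no contrast between conditions, and every test below compares these 2 libraries.

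TALE proteins carry 3 extra residues in the loop between the first and second helices of the homeodomain. Meis, Pknox and Pbx proteins bind DNA together and with Hox proteins, and such complexes act in the patterning of the hindbrain into rhombomeres. Pknox and Meis proteins also bind Pbx proteins and hold them in the nucleus, while Tgif1 is mainly a repressor that meets Smad and retinoid signalling.

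The codons of the loop are what the 9 genes have in common, so they are shown with up to 18 bases of the same exon on each side (9 bases of loop codons in capitals, coding strand, GENCODE M21 transcripts on GRCm38). The windows come from the leading coding transcript of each gene, and for Pbx4 from its full-length coding transcript.
Meis1, chr11:18905736-18905765, minus strand: cacCCTTACCCTtctgaagaacagaaaaag
Meis2, chr2:115921719-115921748, minus strand: cacCCGTACCCTtcagaagaacagaagaaa
Meis3, chr7:16183791-16183820, plus strand: cacCCGTACCCTtcagaagagcaaaagaaa
Pknox1, chr17:31602786-31602815, plus strand: catCCCTACCCAacagaggatgagaaaaag
Pknox2, chr9:36895358-36895387, minus strand: cacCCCTATCCCactgaagatgagaagagg
Pbx2, chr17:34594637-34594681, plus strand: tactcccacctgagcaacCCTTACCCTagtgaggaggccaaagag
Pbx3, chr2:34204816-34204860, minus strand: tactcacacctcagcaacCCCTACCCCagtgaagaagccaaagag
Pbx4, chr8:69866523-69866567, plus strand: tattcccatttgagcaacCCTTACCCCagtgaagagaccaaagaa
Tgif1, chr17:70846208-70846252, minus strand: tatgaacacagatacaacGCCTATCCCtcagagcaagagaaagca

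The position of the loop in its exon was the same in the Meis and Pknox genes and differed from that in the Pbx genes and Tgif1. In Meis1, Meis2, Meis3, Pknox1 and Pknox2 the loop codons began at base 4 of an exon of 77 nt. In Pbx2, Pbx3 and Pbx4 they began at base 74 of an exon of 136 nt, and in Tgif1 at base 165 of an exon of 227 nt. Over 189 bases that cover the homeodomain, Meis1 shared 85.2% of bases with Meis2 and 85.7% with Meis3, and Meis2 shared 83.6% with Meis3. Identity was 79.4% to 82.5% among the Pbx genes and 76.7% between Pknox1 and Pknox2. Meis1 shared 69.8% with Pknox2 and 65.1% with Pknox1, and 45.0% to 51.3% with the Pbx genes. Tgif1 was at 45.0% to 56.6% with every other member.

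The libraries held 31633169 (replicate 1) and 29766460 (replicate 2) expected counts, and spike-in RNAs took 8.39% and 10.9% of the TPM. The 9 hindbrain markers were detected at 1 TPM in both libraries with a median of 15.1 TPM (replicate 1) and 19.3 TPM (replicate 2). Of forebrain markers 4 of 8 were detected, of midbrain markers 4 of 5, and of trunk spinal cord markers 0 of 7. In bulk tissue, fewer cells of a type and less RNA per cell cannot be told apart.

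Meis genes gave most of the RNA of these cofactors. TPM is scaled per length, so levels can be set beside each other between genes. Meis1, Meis2 and Meis3 together summed to 358 TPM (replicate 1) and 401 TPM (replicate 2), which was 60.1% and 61.3% of the sum over the 9 genes. Pbx2, Pbx3 and Pbx4 had 131 and 136 TPM together, and Pknox1 with Pknox2 had 52.8 and 61.4 TPM.

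Meis1 (chr11:18879817-19018985, minus strand), a Hox and Pbx partner, was highest, with 142 TPM (replicate 1) and 166 TPM (replicate 2) from 7438 and 8164 expected counts. Its mean was 154 ± 16.7 TPM (SD, n = 2), which is in the top 4.41% of 21474 protein-coding genes. Meis2 (chr2:115863064-116065839, minus strand), its paralogue, had 106 and 125 TPM (115 ± 13.1). Meis3 (chr7:16175090-16186504, plus strand), which in Xenopus promotes hindbrain fates, had 110.0 and 111 TPM (110.4 ± 0.601). Meis1 was above Meis2 in both libraries, by 0.41 ± 0.01 on the log2(TPM + 1) scale. Meis2 was below Meis3 in replicate 1 and above it in replicate 2, so these neighbours did not differ beyond their spread (0.06 ± 0.16).

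Pbx3 (chr2:34171457-34373142, minus strand), which mice need for central control of breathing, was the highest of the listed Pbx genes at 86.4 and 89.2 TPM (87.8 ± 1.97). It was below Meis3 by 0.33 ± 0.02 on the log2 scale, with no overlap of their values. Tgif1 (chr17:70844205-70853546, minus strand) followed at 54.5 and 55.5 TPM (55.0 ± 0.742), separate from Pbx3 above it and from Pbx4 below it.

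Pbx4 (chr8:69832491-69872292, plus strand), known in the mouse mainly from the testis, had 29.6 and 31.4 TPM. Pknox1 (chr17:31564734-31607693, plus strand) had 28.9 and 31.0 TPM, and Pknox2 (chr9:36890982-37147407, minus strand) 23.9 and 30.4 TPM. The values of these 3 genes overlapped, and neither Pbx4 against Pknox1 (0.03 ± 0.01) nor Pknox1 against Pknox2 (0.14 ± 0.17) met both conditions for a separate place. Those conditions were no overlap between the values and a mean log2 difference above its SD. Pbx2 (chr17:34591266-34597400, plus strand) was lowest at 14.6 and 15.1 TPM (14.9 ± 0.332), clear of Pknox2 by 0.82 ± 0.21. Of the 8 pairs of neighbours in the order, 5 were separate.

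**Figure D1:**
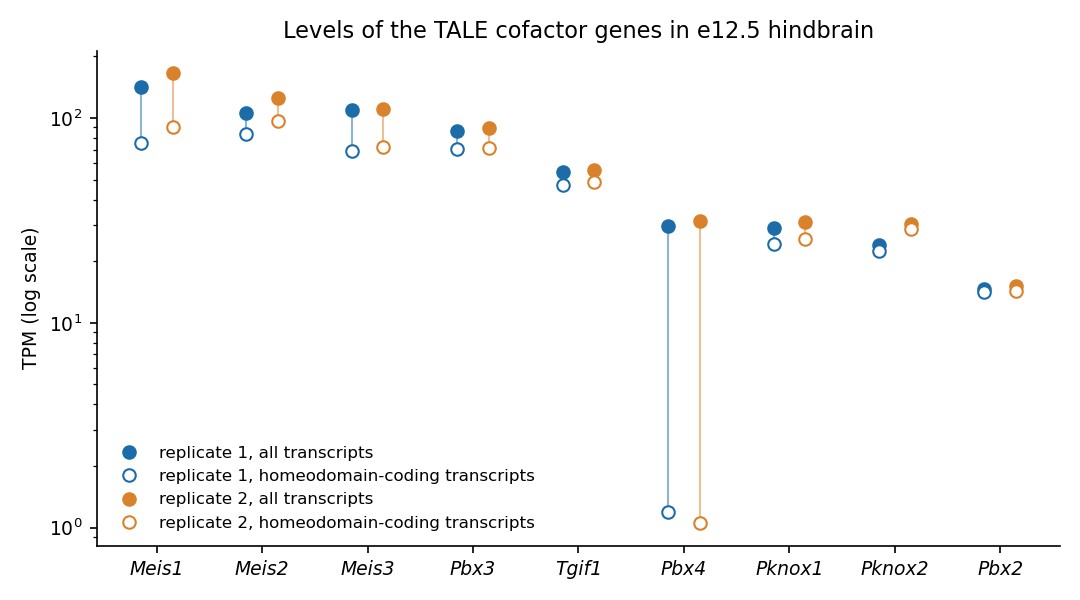
TPM (log scale) of each TALE cofactor gene in replicate 1 (blue) and replicate 2 (orange). Filled points are all transcripts of the gene and open points are the protein-coding transcripts whose coding sequence holds the homeodomain; for Pbx4 the open points lie at 1.19 and 1.05 TPM, far below the filled ones.

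The cofactors stood high among homeodomain genes. Their median was 54.5 TPM (replicate 1) and 55.5 TPM (replicate 2). The median of the other 8 TALE genes was 23.6 and 22.0 TPM, that of 12 Hox genes of paralogue groups 1 to 4 was 8.75 and 12.7 TPM, and that of 170 homeodomain genes outside the class was 4.50 and 4.81 TPM. Over 21474 protein-coding genes it was 5.87 and 6.07 TPM. Detection followed the same order of lists, with 9 of 9 cofactors, 8 of 8 other TALE genes, 11 of 12 Hox genes and 112 of 170 homeodomain genes at 1 TPM in both libraries. None of the 170 homeodomain genes had a higher mean than Meis1, Meis2 or Meis3. Above Pbx3 lay 2 of them, and above Pbx2 lay 47.

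The highest of those genes were Cux1 (93.5 ± 0.806 TPM), Uncx (90.3 ± 0.587), Msx1 (86.7 ± 12.3), Hoxb5 (81.2 ± 29.1) and Prrx1 (66.7 ± 0.615), the last a gene of mesenchyme. Among the Hox genes of groups 1 to 4, whose proteins pair with Pbx, Hoxd3 (62.0 ± 7.52), Hoxb2 (53.6 ± 8.66) and Hoxa2 (51.3 ± 10.3 TPM) led. Of the other TALE genes Irx2 had 53.3 ± 3.15, the Tgif1 paralogue Tgif2 had 50.5 ± 2.74, Irx3 had 46.6 ± 2.74 and Irx5 had 34.9 ± 1.34 TPM. Irx1 (10.6 ± 0.983), Mkx (8.88 ± 0.757), Irx4 (6.63 ± 0.587) and Irx6 (2.13 ± 0.658 TPM) were lower.

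Of 9 genes of proteins that bind TALE factors, 8 were detected at 1 TPM in both libraries, all but En2. The corepressors that work with Tgif1 had high levels, Ctbp1 at 346 ± 4.95, Hdac1 at 141 ± 6.56, Ctbp2 at 90.8 ± 1.73 and Sin3a at 32.4 ± 1.36 TPM. The coactivator Crebbp had 34.0 ± 0.856 TPM, the Pbx-binding protein gene Pbxip1 20.5 ± 0.700 and Smad3 20.1 ± 0.884. The Engrailed genes of the midbrain boundary were low, En1 at 6.61 ± 0.714 and En2 at 0.620 ± 0.113 TPM.

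**Figure D2:**
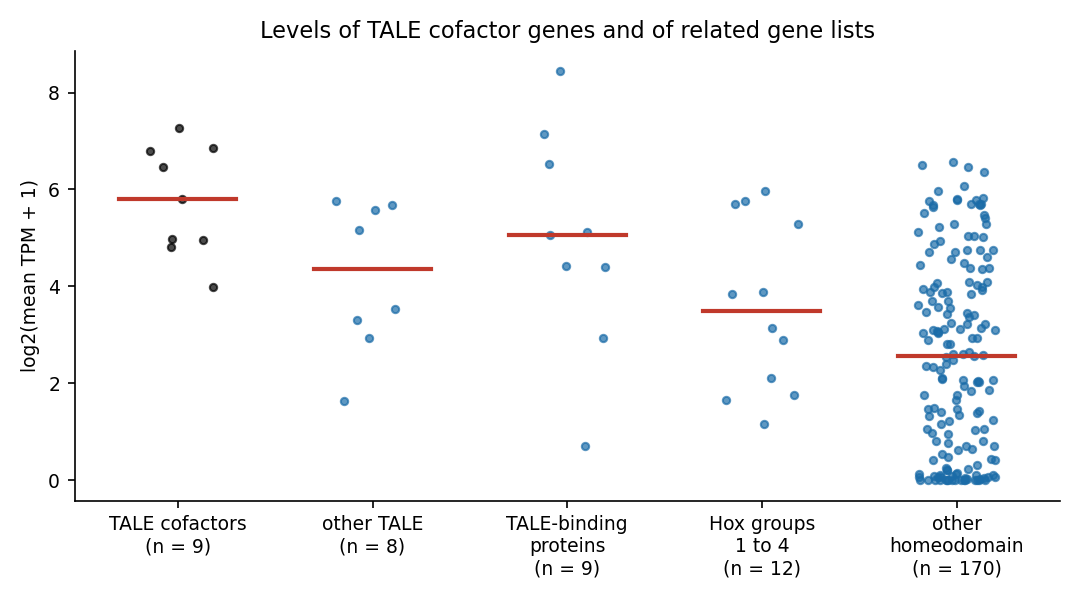
Mean TPM over both libraries, as log2(TPM + 1), for the cofactor genes and the related lists. Each point is a gene and the red bar is the median of the list; the cofactor median is the highest of the 5.

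Between the libraries, 3 of the 9 genes passed an exact binomial test on rounded expected counts with Benjamini-Hochberg adjustment at 0.05, all 3 lower in replicate 1. This test holds counting error only. It called 20.4% of the 19209 genes tested, and 10.7% as lower in replicate 1. The edgeR exact test, which adds 1 dispersion common to all genes (a coefficient of variation of 9.02%), called 0 of the 9 and 1.57% of all genes. With 1 library on each side, that dispersion was estimated from the same difference between libraries that is then tested, which limits the calls it can make. By the edgeR exact test 0 of the 9 had an unadjusted p under 0.05.

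Pknox2 had the largest ratio, with 1495 counts in replicate 1 and 1757 in replicate 2, a log2 ratio of -0.33 (adjusted p 1.86e-09 by the exact binomial test, 0.913 by the edgeR exact test). Meis1 had a log2 ratio of -0.24 (2.73e-22 by the exact binomial test) and Meis2, with 6411 and 6922 counts, of -0.21 (1.88e-15). The other 6 lay between -0.05 for Pknox1 and 0.13 for Pbx4, the last on 388 and 331 counts. For Meis3, Pbx3 and Pbx4 the sign depended on the measure. Their ratios were positive by counts and negative as log2 ratios of TPM + 1 (-0.011, -0.045 and -0.082). By counts, the median of the 9 was -0.04 and that of all genes tested 0.00. These ratios are relative to the bulk of RNA. Scaled to the spike-ins, every ratio moved up by 0.37 and all 9 were higher in replicate 1, so no direction holds under both scalings for Meis1, Meis2 and Pknox2.

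Other gene lists also differed between the pools, in both directions. All 8 skeletal muscle markers were lower in replicate 1 by both tests, with a summed level of 62.3 TPM (replicate 1) and 294 TPM (replicate 2). By the binomial test, which called 10.7% of all genes as lower and 9.68% as higher in replicate 1, 6 of 8 mesenchyme and meninges markers were lower (summed 1438 and 1848 TPM), as were 7 of 9 hindbrain markers (224 and 281) and 7 of 12 Hox genes of groups 1 to 4 (221 and 290). Higher in replicate 1 by that test were 4 of the 8 other TALE genes, with 1 lower (summed 221 and 206 TPM), 3 of 6 neural progenitor markers, with 0 lower (2598 and 2379), and 4 of 5 blood markers (12901 and 10091). The edgeR exact test called 2 of those 12 Hox genes and 0 genes of the mesenchyme, hindbrain, other TALE, neural progenitor and blood lists. These directions are relative to the bulk of RNA, since spike-in scaling adds 0.37 to every log2 ratio by its construction; the median of the skeletal muscle markers, -2.24 by TMM, is the only one of these lists far beyond that shift. None of the markers in these lists was below 1 TPM except 1 Hox gene, Hoxb1, in replicate 2. By the binomial test, 3 of 5 midbrain, 3 of 7 tested forebrain, 3 of 6 neuron and 3 of 6 cranial ganglia markers were also lower in replicate 1. Higher in replicate 1 were 0, 1, 2 and 1 of them. The edgeR exact test called 1, 2, 0 and 1. Some of these midbrain and forebrain markers were below 1 TPM in a library. The part of all these marker and Hox genes in the ratios of Meis1, Meis2 and Pknox2 was not tested.

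**Figure D3:**
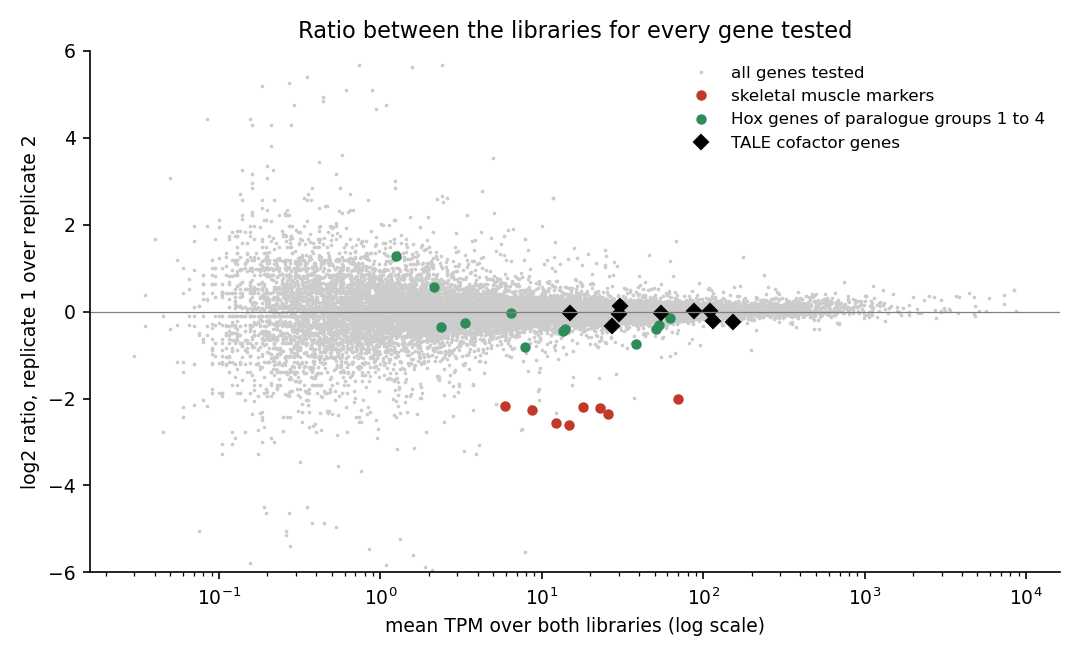
Log2 ratio of replicate 1 over replicate 2 (counts, TMM scaling) against mean TPM (log scale) for every gene tested. Black diamonds are the 9 cofactor genes, between -0.33 and 0.13; red points are skeletal muscle markers and green points Hox genes of groups 1 to 4, and 13 genes lie beyond the vertical axis.

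The genes differed in which transcripts carried their RNA. Transcript shares are the deposited estimates from short reads, as percent of the gene's TPM, and an estimate can move between similar transcripts. In 8 of 9 genes the same transcript led in both libraries, against 92.5% of 8289 genes with several transcripts and 5 TPM or more. Protein-coding transcripts whose coding sequence holds the homeodomain took 96.8% of Pbx2 in replicate 1 and 95.0% in replicate 2, and 93.5% and 93.9% of Pknox2. They took 86.3% and 87.6% of Tgif1, 84.0% and 82.9% of Pknox1, 82.0% and 80.2% of Pbx3, and 78.9% and 77.3% of Meis2. The share was lower in Meis3 (63.0% and 65.5%) and Meis1 (53.4% and 54.8%), and lowest in Pbx4 (4.00% and 3.32%).

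Counted on those transcripts alone, a measure chosen after the shares were seen, the order of the genes changed. Meis2 was then first at 83.7 and 96.3 TPM, ahead of Meis1 at 75.8 and 90.8 TPM, but their values overlapped. Pbx3 had 70.8 and 71.5 TPM and Meis3 69.3 and 72.6 TPM, again with overlap. Pbx4 was last at 1.19 and 1.05 TPM. The Meis sum was 229 and 260 TPM, and the Pbx sum 86.2 and 86.9 TPM.

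**Figure D4:**
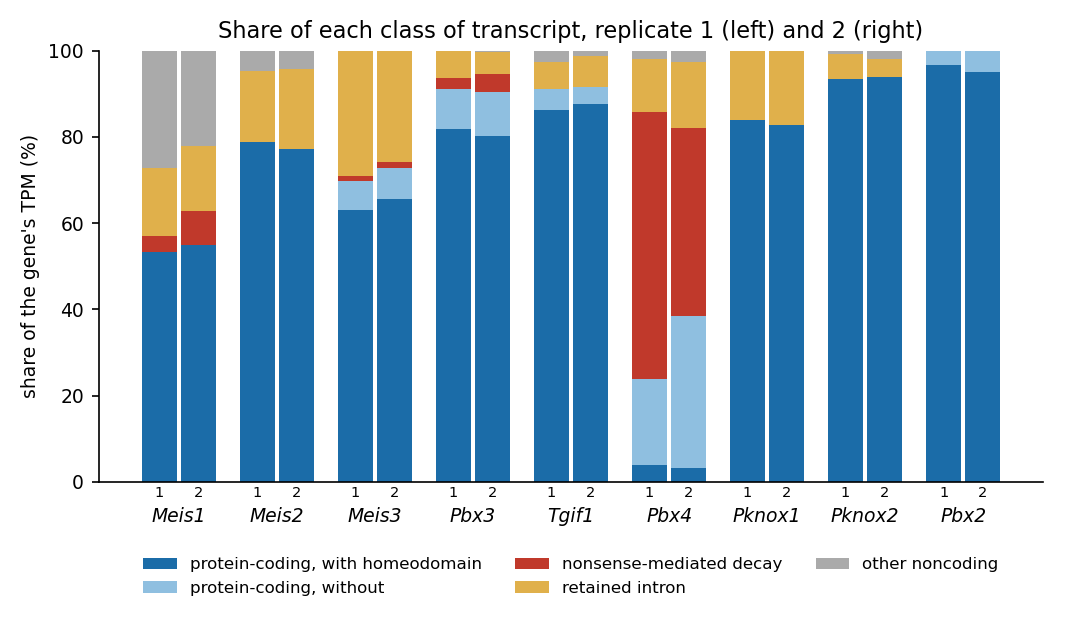
Share of each gene's TPM (percent) in classes of annotated transcripts, with replicate 1 as the left bar and replicate 2 as the right bar of each pair. Transcripts annotated for nonsense-mediated decay fill most or much of the Pbx4 bars (62.1% and 43.6%), and retained introns are largest in Meis3 (29.0% and 25.7%).

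Meis1 RNA was divided between a full coding form and transcripts with no annotated coding sequence. Meis1-201, which codes for 390 residues, held 50.5% in replicate 1 and 51.3% in replicate 2. Meis1-203, annotated as a processed transcript, held 27.3% and 22.0%. It starts at base 19012002, inside the gene, and holds the homeodomain exons. The retained-intron transcripts Meis1-205 (8.84% and 8.47%) and Meis1-204 (6.93% and 6.58%) differed little between libraries, while Meis1-202, annotated for nonsense-mediated decay, had 2.16% and 6.51%. The antisense genes Gm16141 (25.9 and 28.5 TPM) and Gm16140 (2.74 and 5.56 TPM) overlap Meis1, and no source used here says if the library kit marks strand. Expected counts of Meis1 were whole only when summed with Gm37818 and Gm16140 (7620 and 8393, within 0.01), so reads were divided between them.

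The 95-nt exon before the last one closes the reading frame of the main Meis1 and Meis2 forms. Its coding part is shown because transcripts that skip it end otherwise (the stop codon is in capitals, coding strand, GRCm38).
Meis1-201, chr11:18884024-18884082, minus strand: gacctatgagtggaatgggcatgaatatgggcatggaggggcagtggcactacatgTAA
Meis2-205, chr2:115866846-115866904, minus strand: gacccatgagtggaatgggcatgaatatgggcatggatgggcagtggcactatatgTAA

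These stretches of 59 bases were identical at 56, or 94.9%. In Meis1 the exon was in 95.6% of informative transcripts in replicate 1 and 89.4% in replicate 2 (92.5 ± 4.43%), and in Meis2 in 74.9% and 76.3% (75.6 ± 0.996%). Informative transcripts are those that hold both flanking bases and either the whole segment or the direct junction. Meis2-201, which skips the exon, codes for 477 residues, against 401 in Meis2-205, which holds it. The values of Meis2 were below those of Meis1 in both libraries.

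Meis2 spread its RNA over more forms than its paralogues. Its leading transcript Meis2-206 held 32.0% in replicate 1 and 25.4% in replicate 2. Meis2-205 had 11.9% and 18.6%, Meis2-201 13.7% and 16.3%, Meis2-202 10.8% and 11.4%, and Meis2-203 6.52% and 2.30%. The retained-intron transcript Meis2-213 had 9.92% and 10.7%. By the posterior mean shares in the same tables, Meis2-205 led in replicate 2, so the leading form of Meis2 rests on the estimate used.

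Meis2-205 and Meis2-206 differ by 21 nt at an alternative acceptor after the homeodomain (in capitals, with 9 bases on each side, the first 9 from the exon before).
Meis2-205, chr2:115867359-115867379 in capitals, minus strand: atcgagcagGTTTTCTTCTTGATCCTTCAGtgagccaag

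The segment keeps the reading frame, and the coding sequences are of 401 and 394 codons. It was in 37.6% of informative Meis2 transcripts in replicate 1 and 48.9% in replicate 2 (43.2 ± 7.96%), on 5260 and 5587 estimated counts. By posterior mean shares the segment was in 37.4% and 50.2%, so the larger form in replicate 2 rests on the estimate used. Both forms were present in both pools, at 32.9 TPM with it and 54.6 TPM without it in replicate 1, and 48.9 and 51.1 TPM in replicate 2.

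Meis3 was led by Meis3-201 at 45.8% in replicate 1 and 50.4% in replicate 2. Next came Meis3-202 (21.2% and 17.7%), which retains an intron, and Meis3-205 (17.2% and 15.1%). The partial form Meis3-203 had 3.37% and 7.22%, and the retained-intron form Meis3-209 had 6.65% and 6.63%. Retained-intron transcripts took 27.4 ± 2.33% of Meis3, more than in 88.9% of 8075 protein-coding genes with several transcripts, whose median was 1.59% and 1.39%. In Meis1, Meis2 and Pknox1 they took 15.4 ± 0.509%, 17.4 ± 1.44% and 16.6 ± 0.785%.

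Meis3-201 and Meis3-205 differ by 51 nt that keep the frame (378 and 361 codons), shown in capitals with 9 bases on each side.
Meis3-201, chr7:16178951-16179001 in capitals, plus strand: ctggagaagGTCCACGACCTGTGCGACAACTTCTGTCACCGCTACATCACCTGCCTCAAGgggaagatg

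The longer form was the major one, with the segment in 72.7% of informative transcripts in replicate 1 and 76.9% in replicate 2 (74.8 ± 2.99%).

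Pbx3 had a short and a long form. The short Pbx3-202, with 351 codons, led at 54.4% in replicate 1 and 51.2% in replicate 2, and the long Pbx3-201, with 434 codons, had 27.5% and 28.9%. Pbx3-208, with a retained intron, had 6.33% and 5.10%, and the partial Pbx3-203 had 5.12% and 5.95%. An exon of 113 nt, downstream of the homeodomain, is in the long form and not in the short one (in capitals, with 9 bases of each neighbouring exon).
Pbx3-201, chr2:34176749-34176861 in capitals, minus strand: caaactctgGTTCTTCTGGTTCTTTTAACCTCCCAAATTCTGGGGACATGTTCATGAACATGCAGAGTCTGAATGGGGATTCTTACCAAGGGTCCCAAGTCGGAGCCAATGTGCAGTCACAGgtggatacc

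The exon was in 35.3% of informative Pbx3 transcripts in replicate 1 and 38.8% in replicate 2 (37.0 ± 2.48%). Skipping it was the more common form in both libraries, at 47.1 TPM without it against 25.6 TPM with it in replicate 1, and 45.9 against 29.1 TPM in replicate 2.

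**Figure D5:**
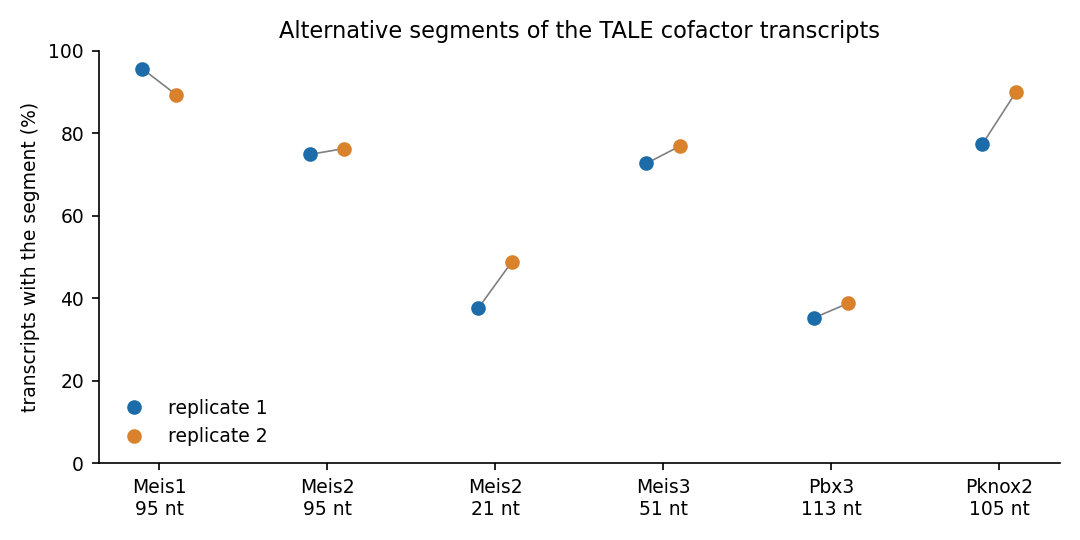
Percent of informative transcripts that hold each alternative segment, in replicate 1 (blue) and replicate 2 (orange). The Meis1 and Pknox2 exons are in most transcripts, at 77.4% or more in both libraries. By the shares plotted, fewer transcripts hold the Meis2 21-nt and the Pbx3 113-nt segments than lack them in both. By posterior mean shares the Meis2 21-nt segment is at 50.2% in replicate 2.

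Pbx2, a broadly expressed Hox partner, was led by Pbx2-201 (68.9% and 72.6%), with 430 codons. Pbx2-203 (27.9% and 22.4%) starts upstream, at base 34591266 against 34592263, and codes for 348, and the partial Pbx2-204 had 3.24% and 5.03%. The start of Pbx2-203 lies within Gpsm3 (2.89 and 3.47 TPM), and counts of both genes were whole only in sum (782 and 747).

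Pbx4 stood apart from the other members in its transcripts. Pbx4-201, the form that codes for the full 378 residues with the homeodomain, had 4.00% in replicate 1 and 3.32% in replicate 2, on 32.9 and 26.7 estimated counts. Pbx4-205, annotated for nonsense-mediated decay, led in replicate 1 (36.6% and 24.7%). The partial, 375-nt Pbx4-202 led in replicate 2 (19.8% and 35.2%), on 30.7 and 53.5 estimated counts. Pbx4-204 (19.8% and 10.8%) and Pbx4-209 (5.65% and 8.08%) are also annotated for decay, and Pbx4-206 (4.32% and 8.29%) retains an intron. Decay transcripts together took 52.8 ± 13.1% of Pbx4, more than in 99.2% of the 8075 genes, whose median was 0% in both libraries. Because TPM divides by length, the short Pbx4-202 weighs more by TPM than by counts, where Pbx4-205 led in both libraries.

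The junctions of the skipped forms and the stop codons they run into are shown for the decay transcripts with the most RNA (24 bases of the second exon, then the joined exon up to the stop codon in capitals, plus strand of chromosome 8).
Pbx4-205, chr8:69859130-69859153 joined to chr8:69866468-69866511: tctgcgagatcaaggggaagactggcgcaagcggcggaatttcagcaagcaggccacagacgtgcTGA
Pbx4-204, chr8:69859130-69859153 joined to chr8:69870029-69870036: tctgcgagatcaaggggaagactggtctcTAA

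The stop codon of Pbx4-205 comes before the loop codons, which lie in the same exon within chr8:69866523-69866567. Pbx4-204 skips that exon, and neither annotated coding sequence holds a homeodomain.

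Pknox1 and Pknox2 were carried mainly by coding forms. Pknox1-201 held 79.1% and 74.0%, the retained-intron forms Pknox1-206 9.87% and 10.4% and Pknox1-203 6.15% and 5.10%, and the coding form Pknox1-202 4.91% and 6.88%. Pknox2-201 held 71.1% and 84.1% and Pknox2-202 22.4% and 9.80%. In GENCODE M21 both Pknox2 forms have 474 codons. An exon of 105 nt before the start codon (chr9:36987168-36987272) is in Pknox2-201 and not in Pknox2-202. By these M21 structures, that exon was in 77.4% of informative transcripts in replicate 1 and 90.0% in replicate 2 (83.7 ± 8.92%). This was the widest spread of the 6 segments. Pknox2-201 is 3514 nt long as deposited and 3632 nt in M21, so the form that was quantified differs from the M21 one. The same holds for Pknox1-201 (4172 nt as deposited and 4252 nt in M21), Pknox1-202 (2272 and 2170 nt) and Pknox1-203 (689 and 745 nt).

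Tgif1 was led by Tgif1-201, which starts at base 70851207 and codes for 272 residues, at 64.6% in replicate 1 and 57.0% in replicate 2. Tgif1-202 starts farther upstream, at base 70853546 on the same minus strand, codes for 252 residues and had 14.3% and 15.6%. Tgif1-210, which starts at base 70849790 and also codes for 252, had 3.83% and 7.59%. The partial form Tgif1-207 had 3.48% and 6.14%, and the retained-intron form Tgif1-212 had 6.29% and 7.30%.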

How the data were processed

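Total RNA over 200 nt from 2 hindbrain pools was sequenced from 10 ng, with spike-in RNAs, per the labels' protocols. For each library the authors deposited a gene and a transcript table on mm10 with the GENCODE M4 annotation, per the accompanying notes; their aligner and quantifier are not named in these sources. Expected counts (estimated counts, divided where reads fit several genes), TPM and FPKM values and the percent share of each transcript are as deposited by the authors, per the file headers. Coding sequence and coordinates are those of GENCODE M21 (also mm10), matched by identifier; 85 of 92 member transcripts had the same length in both.

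Neighbours in the order were compared as log2(TPM + 1). Expected counts were rounded, genes with 10 or more counts summed were kept, totals were scaled by TMM (edgeR 4.0.16, R 4.3.3), and each gene was tested 2-sided by an exact binomial test. edgeR's exact test with a common dispersion and DESeq2 size factors (1.42.0) were alternatives, as was scaling to spike-ins. With 1 library a pool there are no residual degrees of freedom, so p-values compare libraries. The tests were checked on simulated data. Named were all members, their transcripts at 5% or more in a library, all other TALE and binding-protein genes, and the highest 3 Hox and 5 other homeodomain genes. The 26248 entries with only a number as identifier held 1.07e-04% and 1.14e-04% of counts and were left out. The 884 Ensembl genes with no match in M21 were kept in the tests where they passed the count filter. The members and lists were chosen with earlier results of these data known.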

Additional observations from a re-analysis of the deposited data

How the results depend on the processing

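The order of the 9 genes kept all 9 places with spike-ins left out of the TPM total, with nuclear protein-coding genes only, with posterior mean TPM and with FPKM, and 5 of 8 neighbours stayed separate under these and under pseudocounts of 0.1 and 0.01. Leaving out 1 replicate in turn kept 7 to 9 places. On homeodomain-coding transcripts, an alternative chosen after seeing the data, 2 places were kept. The median of the members was 60.9 TPM without spike-ins, 69.8 TPM over nuclear protein-coding genes and 47.8 TPM on homeodomain-coding transcripts, against 55.0 TPM, and 54.5 to 55.5 TPM with 1 replicate left out.

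The edgeR exact test called 0 members, against 3. Scaling to the spike-ins called 8 members, and it called 13010 of all 19209 genes tested. DESeq2 size factors, total counts and both other count filters also called 3 members. With spike-ins the log2 ratios were 0.13 for Meis1, 0.16 for Meis2, 0.33 for Pbx2, 0.31 for Pknox1, 0.035 for Pknox2 and 0.33 for Tgif1, all of which were negative by TMM. The construction of that scaling adds 0.37 to every gene. The same transcript led in 7 members by posterior mean shares and in 9 by expected counts, against 8. No paired analysis was possible because the samples form 1 group. Pbx4 had the fewest counts of the members, 388 and 331. The SD of the share was 10.9 for Pbx4-202 and 8.43 for Pbx4-205. It was 9.20 for Pknox2-201, which had more counts.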
